A study of Mus musculus with 2 samples.

Results

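The MS4A genes encode a family of small membrane proteins. Of 55536 annotated mouse genes, 8 family members were followed in RNA on chromatin of stimulated macrophages: Ms4a4a, Ms4a4b, Ms4a4c, Ms4a6b, Ms4a6c, Ms4a6d, Ms4a7 and Ms4a8a. They were chosen by symbol, and each symbol was paired with its gene identifier through the names in the deposited transcript tables. The rule itself uses no measured value, though the list was drawn up with earlier results of these data known. The cells were primary macrophages grown from C57BL/6J bone marrow and exposed to lipid A at 100 ng/ml for 75 min. TLR4, the receptor for lipopolysaccharide, recognises lipid A. Total RNA of the chromatin fraction was depleted of ribosomal RNA and sequenced as 2 libraries of that 1 group, replicate 1 from 250 ng and replicate 2 from 500 ng of RNA. Both carry the same donor label, and no source used here says that the cultures came from separate mice, so the spread may be technical. Age and sex were not collected, and no untreated cells or other fraction were analysed here, so nothing below is a response to lipid A.

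MS4A proteins cross the membrane as tetraspan-like chains with both ends inside the cell, and many act beside immune receptors. Ms4a1 encodes CD20 of B cells, Ms4a2 the beta chain of the high-affinity IgE receptor of mast cells, and Ms4a3 marks granulocyte-monocyte progenitors. In macrophages, MS4A4A has been found with the beta-glucan receptor Dectin-1 (Clec7a), the MS4A4A and MS4A6A genes have been linked to the lipid receptor TREM2, and Ms4a6d to the receptor VSIG4.

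All 8 members have 7 exons in the annotated transcript with the longest coding sequence, and exon 4 shows how near and how far they stand. It is 57 bases long in 7 members and 60 in Ms4a8a. The sequences below are its coding strand, and capitals mark the 19 positions at which the 7 members of equal length carry the same base (mm10).
Ms4a7 exon 4 (chr19:11325807-11325863, minus strand): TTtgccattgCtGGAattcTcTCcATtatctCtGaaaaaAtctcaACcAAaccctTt
Ms4a6b exon 4 (chr19:11523910-11523966, plus strand): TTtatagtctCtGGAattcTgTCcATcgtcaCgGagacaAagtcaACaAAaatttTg
Ms4a6c exon 4 (chr19:11475274-11475330, plus strand): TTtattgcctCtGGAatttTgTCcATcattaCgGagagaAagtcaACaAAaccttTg
Ms4a6d exon 4 (chr19:11592865-11592921, minus strand): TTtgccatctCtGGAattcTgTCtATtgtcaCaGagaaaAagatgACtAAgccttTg
Ms4a4a exon 4 (chr19:11386383-11386439, plus strand): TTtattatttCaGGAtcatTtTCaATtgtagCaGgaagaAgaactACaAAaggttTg
Ms4a4b exon 4 (chr19:11457796-11457852, plus strand): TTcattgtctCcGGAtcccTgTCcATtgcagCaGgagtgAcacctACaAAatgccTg
Ms4a4c exon 4 (chr19:11417643-11417699, plus strand): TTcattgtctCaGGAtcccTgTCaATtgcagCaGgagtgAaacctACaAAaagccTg
Ms4a8a exon 4 (chr19:11071602-11071661, minus strand): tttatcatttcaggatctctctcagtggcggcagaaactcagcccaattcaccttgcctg
Ms4a4b and Ms4a4c shared 53 of the 57 bases, and over the whole coding sequence 91.7% of aligned positions were identical, the closest pair. Ms4a6b was 80.6% identical to Ms4a6d and 75.9% to Ms4a6c. Ms4a4a was 63.1% identical to Ms4a4b by the same measure, and Ms4a7 was nearest to Ms4a6d, at 55.9%. Pairs as close as Ms4a4b and Ms4a4c can exchange reads in an estimate of counts. In the authors' first quantification, described below, both had whole counts, 78 and 369 for Ms4a4b and 10 and 51 for Ms4a4c. Those counts show no read divided between genes. In the second, also described below, both had fractional counts. The 2 quantifications differ for these genes, so their separate values are uncertain.

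Libraries held 21453621 estimated counts on annotated genes in replicate 1 and 29638768 in replicate 2. Of 22028 protein-coding genes, 34.7% reached 1 TPM (counts scaled by transcript length and by the table's total) in both libraries. Protein-coding genes took 14.0% of all TPM in replicate 1 and 24.99% in replicate 2, so a gene's TPM rises between them even where its share of protein-coding RNA is level. Macrophage identity was present: 9 of 10 macrophage markers reached 1 TPM in both libraries. Fcgr1, at 0.93 and 2.09 TPM, was the exception. In bulk RNA such as this, fewer cells of a type and less RNA per cell cannot be told apart. All 6 granulocyte progenitor markers, Elane and Mpo among them, were at 0 counts in the first quantification. In the second, Mpo had 30.8 and 125.8 counts, or 0.32 and 1.29 TPM, and Elane stayed at 0. In the first, no B cell or mast cell marker reached 1 TPM in both libraries. Among 6 T cell markers only Cd5 did, at 1.44 and 1.26 TPM. The summed level of the 6 markers was 0.49 and 1.04 TPM for B cells, 1.46 and 1.93 TPM for T cells, and 0.71 and 1.66 TPM for mast cells and basophils.

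Ms4a7 stood far above the other members, and Ms4a8a far below them. In all, 6 of 8 reached 1 TPM in both libraries. Ms4a4c passed in replicate 2 only and Ms4a8a in neither. The order of the 8 genes was the same in both libraries. The authors' deposited TPM intervals of neighbours in that order did not overlap in either library only between Ms4a7 and Ms4a6c. For Ms4a4a against Ms4a6d, and for Ms4a6b against Ms4a4b, they overlapped in both, so those neighbours could not be placed in order.

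**Figure D1:**
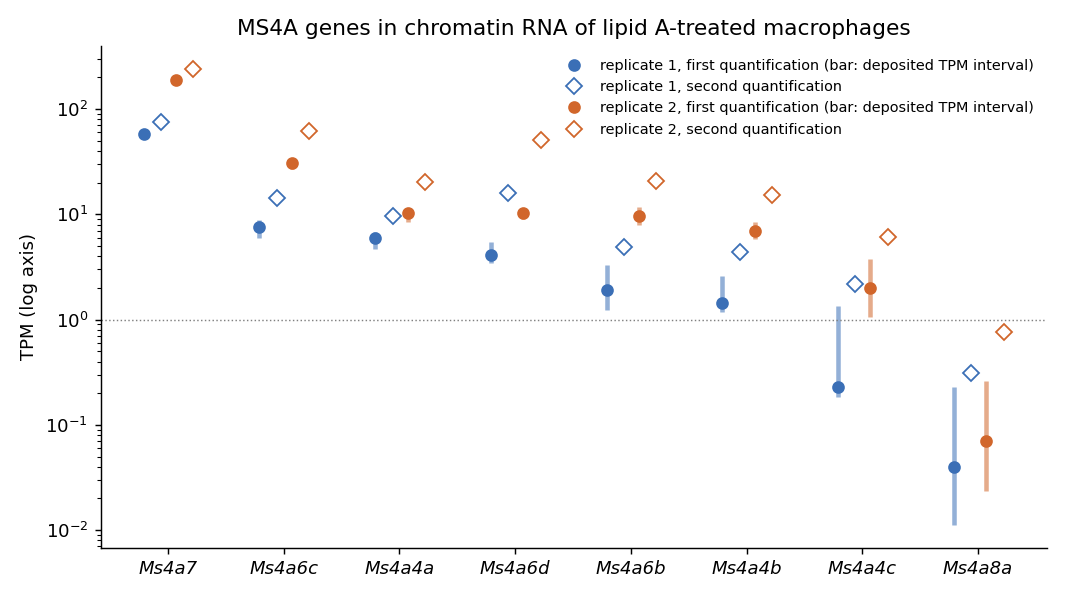
TPM of the 8 MS4A genes on a log axis in replicate 1 (blue) and replicate 2 (orange). Filled points with bars are the first quantification and its deposited interval, open diamonds are the second quantification, and the dotted line is 1 TPM. Ms4a7 lies highest, at 57.99 and 191.15 TPM, and Ms4a8a lowest, at 0.04 and 0.07 TPM.

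Ms4a7, a gene of mature macrophages, was at 57.99 TPM in replicate 1 and 191.15 TPM in replicate 2 (125 ± 94.2, SD, n = 2), from 4260 and 16854 counts. It held 73.2% of the members' summed TPM in each library and ranked 278 of 22028 protein-coding genes by mean TPM. The deposited interval in replicate 2, from 181 to 188 TPM, lay just below the deposited value itself. Scaled to protein-coding genes alone, Ms4a7 stood at 414 and 765 TPM.

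Among the Ms4a6 genes the order in the first quantification was Ms4a6c, Ms4a6d, Ms4a6b, and Ms4a6c was the member next below Ms4a7. Ms4a6c was at 7.57 and 30.63 TPM (19.1 ± 16.3, SD, n = 2), from 159 and 564 counts. Ms4a6d, described as a partner of VSIG4, was at 4.12 and 10.21 TPM (7.17 ± 4.31), from 127 and 352 counts. Ms4a6b was at 1.93 and 9.72 TPM (5.83 ± 5.51), from 113 and 662 counts. All were higher in replicate 2, and the ranges of the libraries overlapped between these 3 genes. Ms4a6c ranked 2101 and Ms4a6b 4589 of the protein-coding genes.

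Among the Ms4a4 genes, Ms4a4a led, and by mean it lay between Ms4a6c and Ms4a6d. It was at 5.93 and 10.27 TPM (8.1 ± 3.07, SD, n = 2), from 104 and 196 counts, and ranked 3845. Ms4a4b, best known from T cells, was at 1.44 and 6.92 TPM (4.18 ± 3.87), from 78 and 369 counts. Of the 6 T cell markers, Cd3e, Cd3g and Cd2 were at 0 counts in both libraries and Cd3d at 1 and 0. Lck had 0 and 20 counts, called higher in replicate 2 (exact adjusted p = 0.00143). Cd5 had 61 and 61, called lower in replicate 2 by the same scaled test, described below (log2 ratio -1.08, exact adjusted p = 0.000177). Their part in the level of Ms4a4b was not tested, and Cd3d was at 13.0 and 28.8 TPM in the authors' second quantification, described below. Ms4a4c, the near copy of Ms4a4b, was at 0.23 and 2.00 TPM (1.115 ± 1.25), from 10 and 51 counts. At these depths Ms4a4c was the least precise of the members that could be compared.

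Ms4a8a, described in alternatively activated macrophages, gave 1 count in replicate 1 and 2 in replicate 2, or 0.04 and 0.07 TPM. The exact Poisson 95% intervals of those counts were 0.0253 to 5.57 and 0.242 to 7.22. Both lay under a floor of 3 counts, which was 0.140 CPM (the count over the library's total, scaled to a fixed total) in replicate 1 and 0.101 CPM in replicate 2. The intervals reach above that floor, so a low level is not excluded. In the second quantification Ms4a8a had 13.5 and 32.4 counts. Such intervals cover counting error only.

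In the first quantification, the remaining family genes were mostly at or near 0 counts. Of 16 other MS4A symbols, 15 were found in the annotation, and 9 of those were at 0 counts in both libraries, Ms4a2 and Ms4a3 among them. Ms4a1 gave 6 and 5 counts. A single gene of the list, Ms4a14, reached 1 TPM in both, at 46.16 and 119.21 TPM from 5237 and 14544 counts. It is the gene beside Ms4a7: both lie on the minus strand of chromosome 19, Ms4a7 at 11321039 to 11336146 and Ms4a14 6584 bases further along the direction of transcription. The ratio of Ms4a7 to Ms4a14 TPM was 1.26 in replicate 1 and 1.603 in replicate 2.

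The 8 members lie within 537379 bases of chromosome 19, from 11067471 to 11604849, a span with 27 annotated genes. In the first quantification every protein-coding gene from Ms4a14 to Ms4a6d had counts in both libraries. There 1700017D01Rik, 1700025F22Rik, Ms4a13 and Ms4a5, at 0 counts, lay on the Ms4a8a side of Ms4a14. In the second, 1700017D01Rik had 99.4 and 172.7 counts in replicates 1 and 2, and Ms4a5 had 7 and 42. Ms4a13 and 1700025F22Rik stayed at 0. Among protein-coding genes in order of position, Ms4a14 and Ms4a7, the highest, lay between Ms4a5, at 0 counts in the first, and Ms4a4a. Outside the cluster, Ccdc86 next to Ms4a10 was at 2.78 and 11.12 TPM, and Oosp2 next to Ms4a3 was at 0.

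**Figure D2:**
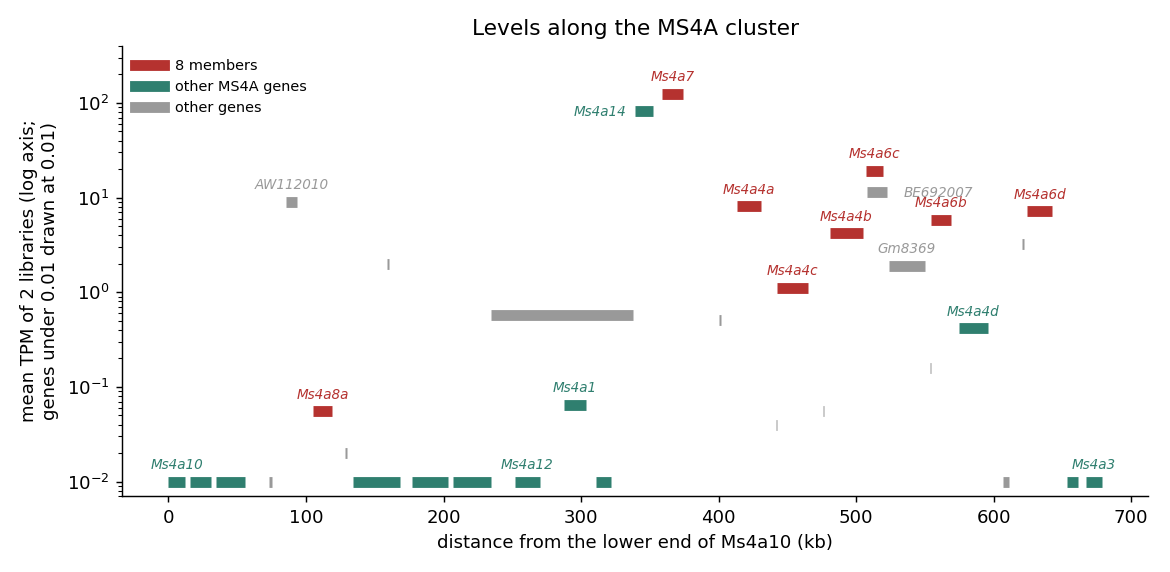
Mean TPM of both libraries (log axis) against distance along the cluster in kb, each bar drawn over the length of its gene. Members are red, other MS4A genes green and other genes grey, and genes under 0.01 TPM are drawn at 0.01; Ms4a7 and Ms4a14 stand adjacent and highest.

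Genes for known partners of MS4A proteins were measured in the same libraries. Syk, a kinase downstream of such receptors, was at 450.89 and 617.98 TPM, and Fcer1g, the shared Fc receptor chain, at 32.95 and 105.76 TPM. Trem2 was at 12.35 and 18.83 TPM, its adaptor Tyrobp at 9.54 and 14.12 TPM, and Clec7a at 2.92 and 7.28 TPM. These 5 of 8 partner genes passed 1 TPM in both libraries. Vsig4 gave only 1 and 3 counts, Tnfrsf18 gave 1 and 0, and Fcer1a was at 0. In the first quantification the partner described for Ms4a6d was thus near the floor while Ms4a6d itself was not. In the second, Vsig4 had 7 and 19 counts, or 0.46 and 1.55 TPM.

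Most members were higher in replicate 2 than in replicate 1 after TMM scaling (a correction for library composition). An exact two-sided binomial test compared the rounded counts of each gene, and a gene was called at an adjusted p under 0.05 with a fold of 2 or more. It compares 2 libraries and not conditions, and replicate 2 also had more RNA as input, which cannot be told apart from the library. Of 14442 genes tested, 7.05% were called higher in replicate 2 and 5.01% lower. Of the 7 members tested, 3 were called higher and 0 lower. Of 10981 protein-coding genes tested, 482 were called higher and 552 lower. Ratios were above 0 in 6 of the 7 members, in 4901 of those protein-coding genes and in 7283 of all 14442. The members' median log2 ratio was 0.91, beside 0.01 over all genes tested.

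The called members were Ms4a6b, Ms4a4c and Ms4a4b. Ms4a6b had a log2 ratio of 1.47 (95% counting interval 1.18 to 1.78, exact adjusted p = 4.32e-28), Ms4a4c 1.27 (0.28 to 2.42, exact adjusted p = 0.0186) and Ms4a4b 1.17 (0.81 to 1.54, exact adjusted p = 1.42e-11). In the second quantification only Ms4a6b was called, beside 4.32% of all genes called higher there. There the log2 ratio of Ms4a4b was 0.30 (0.16 to 0.44) and that of Ms4a4c 0.21 (-0.18 to 0.61).

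A further 3 members had an adjusted p under 0.05 but stayed under the 2-fold limit, so 6 of 7 were higher at any fold, beside 25.4% of all genes. Ms4a7 was 1.88-fold higher in replicate 2 (1.81 to 1.94). Ms4a6c had a log2 ratio of 0.75 (0.49 to 1.01, exact adjusted p = 7.39e-09) and Ms4a6d 0.40 (0.10 to 0.70, exact adjusted p = 0.0179). Ms4a4a alone had a ratio below 0, at -0.16 (-0.51 to 0.20, exact adjusted p = 0.465), and scaling by library size alone gave it 0.45. That scaling moved the median of all genes to 0.62 and called 6 members higher, beside 26.9% of all genes. In Ms4a14 the log2 ratio was 0.40 (0.35 to 0.44).

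Other genes also differed between the libraries. Of 10 interferon-response genes, 9 were called higher in replicate 2. The median of their log2 ratios was 1.59. Ifit2 was at 13.35 and 173.74 TPM, Cxcl10 at 25.27 and 197.06 TPM, and Isg15, the gene not called, at 19.08 and 53.6 TPM. Of 10 macrophage markers, 2 were called lower, Csf1r at -1.16 and Itgam at -1.24. No partner gene was called among the 5 tested, with log2 ratios from -0.60 for Syk to 0.98 for Fcer1g. The part of the interferon genes or of the markers in the members' ratios was not tested.

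**Figure D3:**
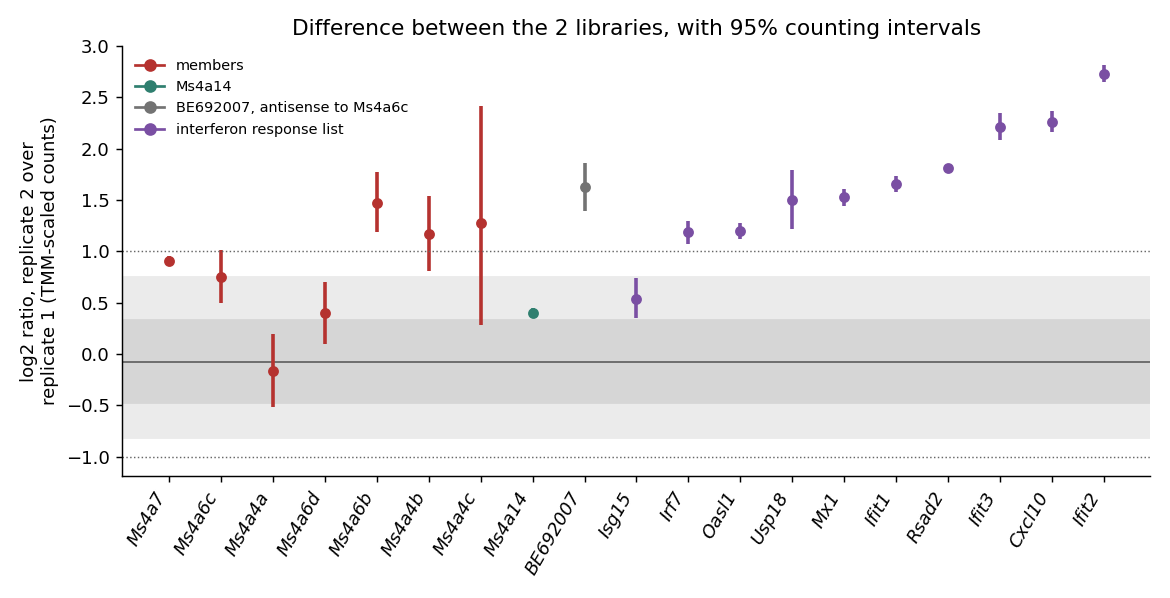
Log2 ratio of replicate 2 over replicate 1 with 95% counting intervals for the 7 members tested (red), Ms4a14 (green), BE692007 (grey point) and 10 interferon-response genes (purple). Grey bands span the middle 50% and 80% of 10981 protein-coding genes, with the median at -0.08, and dotted lines mark 2-fold; Ms4a6b, Ms4a4b and Ms4a4c lie above the upper dotted line.

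Much of the members' signal was assigned to transcripts annotated as retained introns, that is, transcript models that keep all or part of an intron. In Ms4a7 such a model, Ms4a7-205, held 61.5% of the gene's transcript TPM in replicate 1 and 73.2% in replicate 2. The share was 73.8% and 85.3% in Ms4a6c, 85.5% and 93.0% in Ms4a6b, and 79.2% and 80.8% in Ms4a4b. Reads of Ms4a6c were divided with a gene on the opposite strand, described below, so its share is uncertain. All 4 genes lay above the median of 45.9% over 5233 expressed genes that have a transcript of this class, whose middle 50% ran from 29.4% to 62.5%. Ms4a6d was far lower, at 10.4% and 9.40%. Not all of this held in the authors' second quantification, described below, where the median over the same genes was 44.1%. There Ms4a6d stood at 29.9% and 38.5%, and Ms4a7 at 41.5% and 51.0%, on either side of that median. Ms4a6c, Ms4a6b and Ms4a4b stayed above it in both libraries. Ms4a4a and Ms4a4c have no annotated transcript of the class, and Ms4a8a rested on 1 and 2 counts.

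An exon-to-intron boundary kept in 1 model of each of these 4 genes is shown because it is sequence that the spliced forms lack. Lower case is the last 20 bases of the exon, and capitals are the first 40 bases of the intron (mm10).
Ms4a7-205 intron 5 (chr19:11324382-11324441, minus strand): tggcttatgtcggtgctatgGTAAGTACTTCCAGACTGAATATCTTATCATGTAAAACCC
Ms4a6c-202 intron 3 (chr19:11472508-11472567, plus strand): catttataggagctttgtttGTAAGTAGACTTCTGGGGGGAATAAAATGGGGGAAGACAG
Ms4a6b-202 intron 3 (chr19:11521786-11521845, plus strand): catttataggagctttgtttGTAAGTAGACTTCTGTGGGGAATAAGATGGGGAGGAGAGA
Ms4a4b-204 intron 3 (chr19:11454752-11454811, plus strand): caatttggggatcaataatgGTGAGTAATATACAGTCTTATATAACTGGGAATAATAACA
Ms4a7-205 keeps all 2021 bases of intron 5 and all 716 bases of intron 6, and 3559.5 and 15022.7 counts were assigned to it. Ms4a6c-202 ends 209 bases into the 2746 of intron 3, and Ms4a6b-202 ends 50 bases into the 2104 of the same intron of its gene. The printed boundary is the same in both Ms4a6 genes over the 20 exon bases and the first 15 intron bases. Ms4a6b-202 held 47.2% and 46.7% of Ms4a6b TPM. Ms4a6b-203, which keeps all 1676 bases of intron 5, held 38.3% and 46.3% of TPM but 78.8% and 87.7% of counts. Ms4a4b-204 keeps all 3024 bases of intron 3 and held 18.1% and 15.2% of Ms4a4b TPM. Ms4a4b-202 held more, at 40.3% and 45.7%. Its model has only 300 of the 1600 bases of intron 6 and keeps no exon-to-intron boundary of this kind. These shares depend on the unit: by counts, which grow with transcript length, the long Ms4a7-205 held 83.6% and 89.1% of its gene, whereas the short Ms4a6c-202 held 41.0% and 59.4%.

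Coding transcripts carried the rest. Ms4a7-203 held 31.01% and 20.5% of Ms4a7 TPM. Ms4a7-202, which lacks the 57-base exon 4 printed above, held 3.29% and 0.89%. Ms4a6d-201, the full coding form, held 85.0% and 89.3% of its gene, but 40.3% and 45.7% in the second quantification. In Ms4a4c, Ms4a4c-201 held 100% in replicate 1 but 49% in replicate 2, where Ms4a4c-203 took 51% from 4.38 counts. Hence the Ms4a4c split rested on too few counts to be read.

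**Figure D4:**
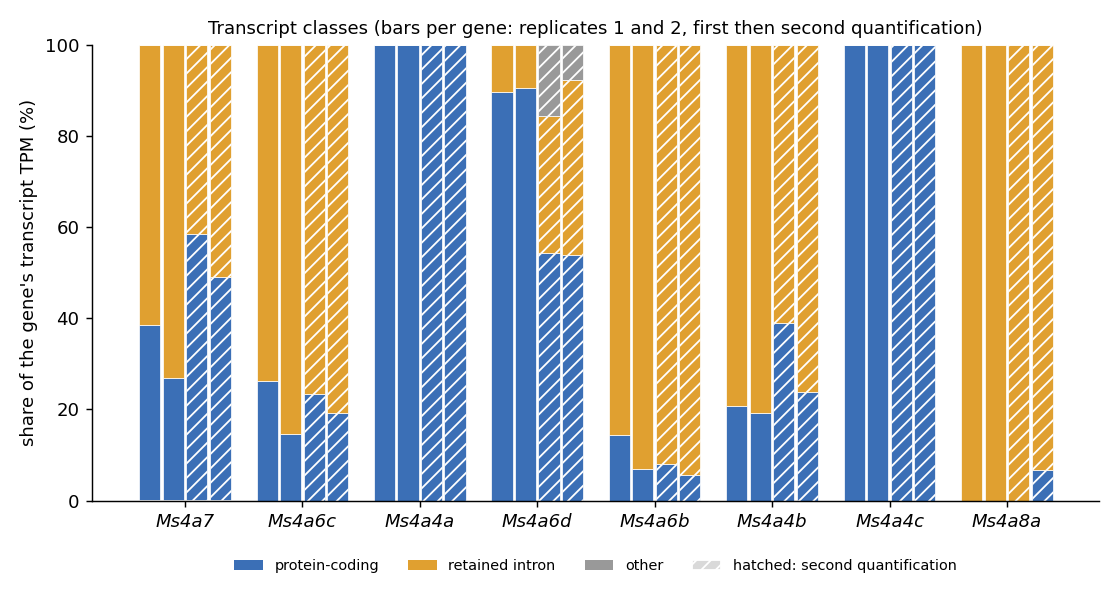
Share of each gene's transcript TPM (%) on protein-coding (blue), retained-intron (yellow) and other (grey) transcripts. The 4 bars of a gene are replicates 1 and 2 of the first quantification, then of the second (hatched); retained-intron transcripts hold over 60% of Ms4a7, Ms4a6c, Ms4a6b and Ms4a4b in the first.

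The authors' second quantification, made from the reads and a transcript index, gave larger counts for the members. Over 10345 protein-coding genes its counts were 1.76 times the first in replicate 1 and 1.74 times in replicate 2, as medians. Of the 7 members with enough counts, 5 lay above the upper quartile in each library. The ratio was 7.35 and 3.91 for Ms4a4c, and 6.89 and 4.18 for Ms4a4b, the pair of nearest copies. It was 3.86 and 4.58 for Ms4a6d, 2.88 and 3.20 for Ms4a6c, and 2.60 and 2.85 for Ms4a4a. Ms4a6b at 1.98 and 1.84 lay within the middle 50%, and Ms4a7 at 1.52 and 1.39 was the lowest of the members.

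**Figure D5:**
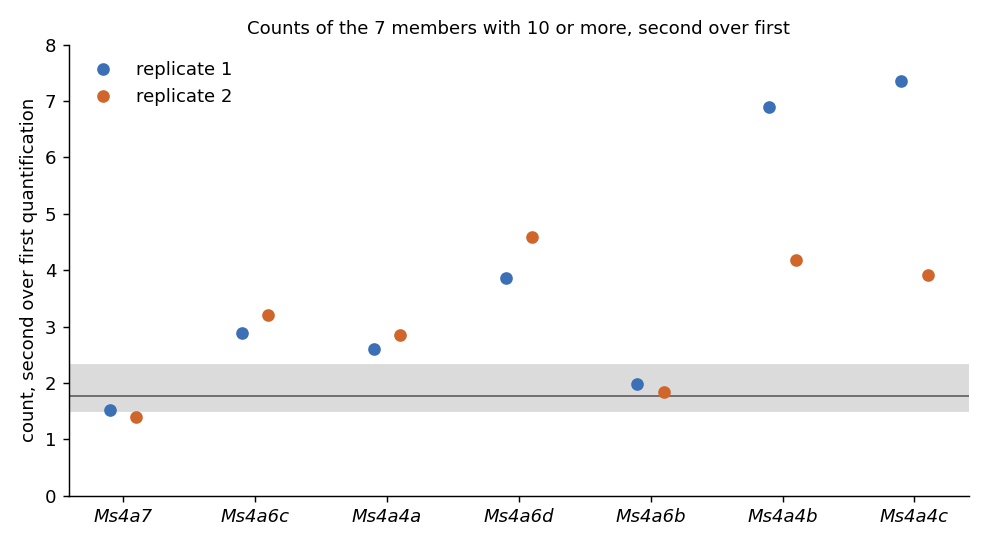
Count in the second quantification divided by that in the first, for the 7 members with 10 or more counts in each library (replicate 1 blue, replicate 2 orange). The grey band is the middle 50% of 10345 protein-coding genes in replicate 1 and the line their median, 1.76; Ms4a4c and Ms4a4b lie highest in replicate 1, and Ms4a6d in replicate 2.

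Levels changed accordingly. In the second quantification Ms4a7 was at 74.9 and 242 TPM, Ms4a6c at 14.4 and 62.0 TPM, and Ms4a6d at 15.9 and 50.8 TPM. Ms4a6d thus rose above Ms4a4a, at 9.64 and 20.3 TPM, and in replicate 1 also above Ms4a6c. Ms4a6b, at 4.85 and 20.6 TPM, lay above Ms4a4a in replicate 2 only. Ms4a4c reached 2.17 and 6.08 TPM, and 7 of 8 members then had 1 TPM or more in both libraries. The order of genes was the same in both libraries for 4 of 8. Ms4a7 remained the highest and Ms4a8a, at 0.31 and 0.77 TPM, the lowest. Ms4a7-202, the form without exon 4, was at 23.1 and 65.2 TPM here against 1.91 and 1.70 TPM in the first quantification, so its level was not settled by these tables.

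Sequence shared with other genes was uneven among the members. Of the 31-base words in its transcripts, Ms4a6c had 21.9% in common with other genes on the same strand, 13.9% with Ms4a6b. Ms4a4c had 17.1%, of which 13.0% with Ms4a4b. In Ms4a7 the share was 1.22%, and in Ms4a4a it was 0. Ms4a6d had 8.11%, Ms4a6b 7.84% and Ms4a4b 5.20%. Ms4a4a, with no shared word, had a count ratio above the upper quartile as well.

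Ms4a6c also overlaps a gene on the opposite strand. BE692007, a processed transcript at 11470166 to 11484578 on the minus strand, shares 1088 exonic bases with it, and 51.0% of the words of Ms4a6c occur in BE692007 read on the other strand. BE692007 had 175.92 and 1143.67 counts, with a log2 ratio of 1.62 (1.39 to 1.86), called higher in replicate 2. No source used here says whether reads were counted by strand, and without strand the reads of the 2 genes cannot be told apart. In the first quantification Ms4a6c had fractional counts, 159.08 and 564.33, which add up to whole numbers with those of BE692007 in each library. Reads were thus divided between the 2 genes there. The level, rank, log2 ratio and transcript shares of Ms4a6c are uncertain for that reason. Ms4a6b shares 19 exonic bases with Gm19261 and Ms4a4c 28 with Gm5692, both of which had at most 2 counts.

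Promoter windows of RefSeq (GRCm38.p6, from 250 bases before to 50 after each start) matched 7 of the 8 members, all but Ms4a6d, in 8 windows. The longest run shared between upstream parts of different members was 48 bases, in Ms4a6c and Ms4a6b. The 250 upstream bases of both are shown with that run in capitals.
Ms4a6c upstream (chr19:11469118-11469367, plus strand): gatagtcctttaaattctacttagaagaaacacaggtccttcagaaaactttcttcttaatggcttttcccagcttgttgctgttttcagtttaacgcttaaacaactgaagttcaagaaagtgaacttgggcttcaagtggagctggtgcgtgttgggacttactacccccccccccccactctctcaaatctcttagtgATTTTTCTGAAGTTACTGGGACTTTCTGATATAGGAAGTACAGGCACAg
Ms4a6b upstream (chr19:11518309-11518558, plus strand): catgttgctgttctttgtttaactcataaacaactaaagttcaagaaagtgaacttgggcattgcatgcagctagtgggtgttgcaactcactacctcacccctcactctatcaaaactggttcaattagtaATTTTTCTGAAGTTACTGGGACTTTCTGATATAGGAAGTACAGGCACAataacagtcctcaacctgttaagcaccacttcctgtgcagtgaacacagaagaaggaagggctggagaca
The run ends 2 bases before the RefSeq start in Ms4a6c and 71 bases before it in Ms4a6b. The next longest was 20 bases, in Ms4a4c and Ms4a4b. Motifs were searched on both strands of the 300-base windows. The core of the interferon-response element (2 GAAA words with any 2 bases between them) was in none of the 8 member windows and in 3.44% of 32851 windows of all genes. The NF-kB motif (GGG, any 2 bases, TTTCC) was in that of Ms4a4a, at position -247 from the start, and in 1.63% of all. PU.1's core GAGGAAG was in none, beside 13.6% of all. The AP-1 motif TGANTCA was in 3, those of Ms4a4b, Ms4a7 and Ms4a8a, beside 7.81% of all. In Ms4a7 it lay only in the window ahead of Ms4a7-201, which held 3.50% and 5.19% of Ms4a7 TPM in the first quantification. The other Ms4a7 window, ahead of Ms4a7-202, Ms4a7-203 and Ms4a7-205, had no match. No match overlapped another motif's. These matches describe letters in a window and say nothing of binding.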

How the data were processed

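Chromatin-fraction RNA was measured in 2 libraries of 1 group. For each library the authors deposited expected (estimated) counts, TPM and FPKM per gene and transcript, with TPM intervals, from an alignment to mm10 with GENCODE M21, per the deposited text; these are the first quantification. Its column names are those of RSEM. A transcript table of estimated counts and TPM deposited by the authors is the second; its column names are those of kallisto. The sources used here do not give the quantifier, its version or its use of strand. Rows without an annotated gene (26345) held 0.409% and 0.277% of counts and were left out.

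Counts were rounded. Each gene whose counts summed to at least 20 was compared by an exact binomial test (two-sided, null share set by TMM factors of 0.81 and 1.24 from edgeR 4.0.16), with Benjamini-Hochberg adjustment over all genes tested. Called means adjusted p under 0.05 and 2-fold or more. Of 200 genes changed 4-fold among 14450 in simulated counts of this comparison, 200 were recovered and 5 unchanged genes were called. The changed genes were drawn only from genes with summed counts well above 20. Recovery at lower counts or smaller folds was thus not measured, and no variation between cultures was simulated. P-values measure counting error only. FPKM, TPM with 0.1 or 1 added, library sizes, DESeq2 1.42.0 size factors and the second quantification served as alternatives. Ranks and quartiles are over protein-coding genes. Coding sequences were aligned globally with Biopython 1.88. Count ratios between quantifications were taken at 10 counts or more in both. All 8 members are named; members, lists and tests were chosen with earlier results of these data known. A planned protein comparison was not run.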

Additional observations from a re-analysis of the deposited data

Results flagged for a closer look

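Signal stood in the second quantification for listed genes that were under 1 TPM in both libraries of the first. Ms4a12 had 1 and 0 counts in the first and 2.17 and 7.08 TPM in the second. Ms4a1 (CD20), a B cell marker, had 6 and 5 counts in the first and 1.03 and 1.87 TPM in the second. Cd22, another B cell marker, went from 0.42 and 0.88 TPM to 1.86 and 4.43 TPM. Cd3d, a T cell marker, had 1 and 0 counts in the first and 13.0 and 28.8 TPM in the second, while Cd3e was at 0.27 and 0.02 TPM there. No control library was analysed here to set these levels against.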

How the results depend on the processing

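The number of members at 1 TPM or more in both libraries was 6. It rose to 7 with the second quantification, fell to 3 at a limit of 5 TPM, and ran from 6 to 7 when replicates were left out one at a time. The number of members called between the libraries was 3 with TMM, with DESeq2 size factors and with no filter on the summed count, and the same 3 genes in each. It was 6 with library size only, 6 at any fold and 1 in the second quantification; the cause was not tested. At any fold, 25.4% of all genes were higher and 25.9% lower. The log2 ratio of Ms4a4a turned positive with library size only (0.45), with TPM + 0.1 (0.78) and with TPM + 1 (0.70); protein-coding genes held 14.0% and 24.99% of TPM in replicates 1 and 2. No paired analysis was possible because the series has 1 group. Depth limits Ms4a4c and Ms4a8a most, at 61 and 3 counts over both libraries, and with 2 libraries the SD of every level is itself imprecise.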

Other observations

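Other transcribed units lie among or beside the members, and their levels are given as values with no test. The lincRNA AW112010, next to Ms4a8a, was at 2.19 and 15.95 TPM from 26 and 210 counts. Gm8369, a protein-coding gene between Ms4a6c and Ms4a6b, was at 0.65 and 3.15 TPM from 18 and 75 counts. Gm38275, next to Ms4a6d, was at 1.65 and 4.75 TPM from 63 and 196 counts. The antisense gene 4930526L06Rik, which runs across Ms4a12, Ms4a1 and Ms4a5, gave 11 and 17 counts, or 0.48 and 0.68 TPM. All 4 had a higher TPM in replicate 2, a unit that is not corrected for library composition.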
